A study of Mus musculus with 6 samples.

Results

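A set of 10 genes around the NLRP3 inflammasome was followed in iBMDM, a line of mouse bone-marrow-derived macrophages that has been immortalised: Nlrp3 itself, the kinase Nek7 with its paralogs Nek6 and Nek9, and the upstream regulators Brcc3, Txnip, P2rx7, P2rx4, Mark4 and Hdac6. They were chosen by name, all 10 were found once each among 21047 genes in the deposited table, and all 10 passed the filter on low values. RNA had been sequenced from 6 samples, 3 labelled WT and 3 labelled A20KO, in which Tnfaip3, the gene of the ubiquitin-editing enzyme A20, had been knocked out. The labels give no treatment of either line, and the sources used here do not say how the A20KO line was edited or whether it is 1 clone. The title of the series names NEK7 as the point at which A20 acts on the inflammasome, and the comparison below asks how the RNA of these genes differed between the lines.

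NLRP3 is a cytosolic sensor that, once cells are primed, assembles with the adaptor ASC and caspase-1 when potassium leaves the cell or organelles are disturbed. NF-kB signalling, which A20 restrains, raises Nlrp3 transcription during priming. NEK7 binds NLRP3 and bridges its subunits, BRCC3 removes ubiquitin from NLRP3, TXNIP can bind it under oxidant stress, the ATP-gated channels P2RX7 and P2RX4 pass cations, and MARK4 and HDAC6 act on the transport of NLRP3 along microtubules. In dividing cells NEK9 activates NEK6 and NEK7.

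Of the 10 genes 4 were higher in A20KO, 2 were lower and 4 did not pass the test (limma, adjusted p under 0.05 over all 17376 genes tested). The background was wide: 39.8% of all genes tested passed, 20.3% higher and 19.6% lower, and 58.2% of the 9383 genes with a mean of at least 100 passed, so 6 of 10 is near the share of genes at these levels. The genes that rose were Txnip, P2rx7, Nek7 and Nlrp3, in the order of their fold changes. The genes that fell were Hdac6 and Nek9, by less. By the adjusted p of the authors' deposited table, 5 of the 10 passed 0.05, the same genes except Hdac6 (0.074). Levels are the authors' normalized reads (mean ± SD, n = 3 for each genotype). A log2 fold change is the A20KO mean minus the WT mean of log2(normalized reads + 1), and its 95% interval comes from limma. The labels do not state whether replicate libraries stem from separate cultures. The p-values therefore reflect the variation among these libraries alone, and part or all of it may be technical.

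Upstream sequences are printed for the 4 genes that rose, and these genes were picked by that result. Sequences next to a start of transcription given by RefSeq were found for 9 of the genes followed, so having one does not set the 4 apart. The printed sequences show what short words the 4 do and do not share. They are the bases before the first transcribed base given by RefSeq (GRCm38.p6), without bases inside an exon annotated for the gene, 5′ to 3′ on the gene's strand. Capitals mark matches on either strand to 8 words or patterns searched. These were the NF-kB site consensus, the E-box CACGTG, paired E-box-like words (CACGNG at each end of a 5-base gap) and the AP-1 site TGANTCA. The others were the cyclic AMP response element TGACGTCA, the PU.1 core GAGGAAGT, the word CCAAT and the word TATAAA. No match shown overlaps another.
Txnip, chr3:96557707-96557956, plus strand: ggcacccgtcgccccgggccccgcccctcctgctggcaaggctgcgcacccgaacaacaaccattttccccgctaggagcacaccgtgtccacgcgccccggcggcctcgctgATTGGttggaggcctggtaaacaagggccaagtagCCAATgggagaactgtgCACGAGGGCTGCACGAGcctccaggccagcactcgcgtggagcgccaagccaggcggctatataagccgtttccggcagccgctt
Nlrp3, chr11:59541319-59541567, plus strand: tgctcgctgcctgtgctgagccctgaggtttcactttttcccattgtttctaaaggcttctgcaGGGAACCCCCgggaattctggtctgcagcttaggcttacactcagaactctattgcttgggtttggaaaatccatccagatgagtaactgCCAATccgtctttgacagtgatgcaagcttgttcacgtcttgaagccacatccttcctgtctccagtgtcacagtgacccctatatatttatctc
Nek7, chr1:138619758-138619903, minus strand: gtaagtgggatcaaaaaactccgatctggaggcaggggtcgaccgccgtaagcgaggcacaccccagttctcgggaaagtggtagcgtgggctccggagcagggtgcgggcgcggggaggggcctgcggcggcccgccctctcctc
P2rx7, chr5:122643677-122643910, plus strand: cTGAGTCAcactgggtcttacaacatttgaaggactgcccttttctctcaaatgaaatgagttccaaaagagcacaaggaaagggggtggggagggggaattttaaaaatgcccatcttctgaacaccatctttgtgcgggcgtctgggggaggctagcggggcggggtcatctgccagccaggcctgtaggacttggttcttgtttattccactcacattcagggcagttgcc

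The 17-base match in the Txnip sequence, 85 to 69 bases before the start, is a pair of E-box-like words. The glucose-sensing factors MondoA and ChREBP are known to bind paired E-box sites of this kind. The pattern with CACGNG is looser than a pair of CACGTG words. It was matched in 15 of 32851 upstream windows of 250 bases (0.0457%). That share describes the pattern as written and is not a test of the Txnip match. Txnip also held the word CCAAT on each strand, which 33.8% of windows hold. The Nlrp3 window held a match to the NF-kB consensus 186 to 177 bases before the start, as 7.25% of windows did, and 1 CCAAT word. The P2rx7 window held 1 AP-1 word 249 to 243 bases before the start, as 6.75% of windows did. In the Nek7 window none of the 8 was found, also not in the 104 bases left out of the printed sequence because they lie in an annotated exon. RefSeq starts Nek7 at 138619757, 384 bases inside the gene's end in the deposited table. The Nek7 window thus lies within the gene as deposited. The bases before the deposited start at 138620141 were not searched, so the absence of words does not describe them. Of the genes that did not rise, Brcc3 and Hdac6 held CCAAT words, Nek6 held CCAAT and TATAAA in 1 of its 2 windows, and Nek9 and P2rx4 none of the 8. RefSeq gives Nlrp3 and P2rx7 each 1 further start, at 59542686 and 122650383, whose windows held none of the 8, and the windows shown and described for both genes are those of the first start. The words E-box CACGTG, TGACGTCA, GAGGAAGT and TATAAA, found in 6.02%, 1.55%, 2.44% and 12.4% of windows, were in none of the 4 windows. Only the exact word TATAAA was sought. Similar letters near the start, tatataag in Txnip and tatatattta in Nlrp3, were therefore not counted, and its absence does not mean that no TATA-like element is there. In base composition the Txnip and Nek7 windows held 22 and 17 CpG pairs in 250 bases and the P2rx7 and Nlrp3 windows 6 and 4, against a median of 6 over all windows. A match is a description of letters and not a bound site.

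The libraries held 13308840 to 15130697 reads assigned to genes, and across the 9383 genes with means of 100 or more the log2 values of libraries correlated at 0.9941 to 0.9951 within a genotype and 0.9199 to 0.9229 between genotypes. Tnfaip3 had 389, 382 and 437 normalized reads in WT and 194, 196 and 189 in the libraries labelled A20KO (log2 fold change -1.06, SE 0.101, limma adjusted p = 7.1e-14). Its RNA was thus lower but present, and a count over the whole gene cannot tell where in the gene the edit lies. All 10 macrophage markers were listed, and their summed level was 32231 to 32871 normalized reads in WT and 28190 to 28349 in A20KO. Among them Csf1r, Fcgr1 and Mertk rose, Cd68, Itgam, Lyz2, Ptprc, Cd14 and Spi1 fell, and Mertk had no WT read. Neutrophil markers summed to 102 to 138 in WT and 35.2 to 53.6 in A20KO, with Ly6g and S100a9 not listed. Nearly all of this was S100a8 (means of 112 and 42.6), and Mpo and Elane had at most 5 reads per genotype. Dendritic cell markers summed to 35.9 to 42.9 and 74.6 to 85.9, mostly from Zbtb46 (means of 34.8 and 75.2). Xcr1 stood at 4.4 and 3.65, and Flt3 and Clec9a had at most 3 reads per genotype. B cell, T cell, fibroblast, epithelial and endothelial markers each summed to at most 8.78 in any library. In bulk samples fewer cells of a type and less RNA per cell cannot be told apart. The part of the marker differences in the results was not tested.

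**Figure D1:**
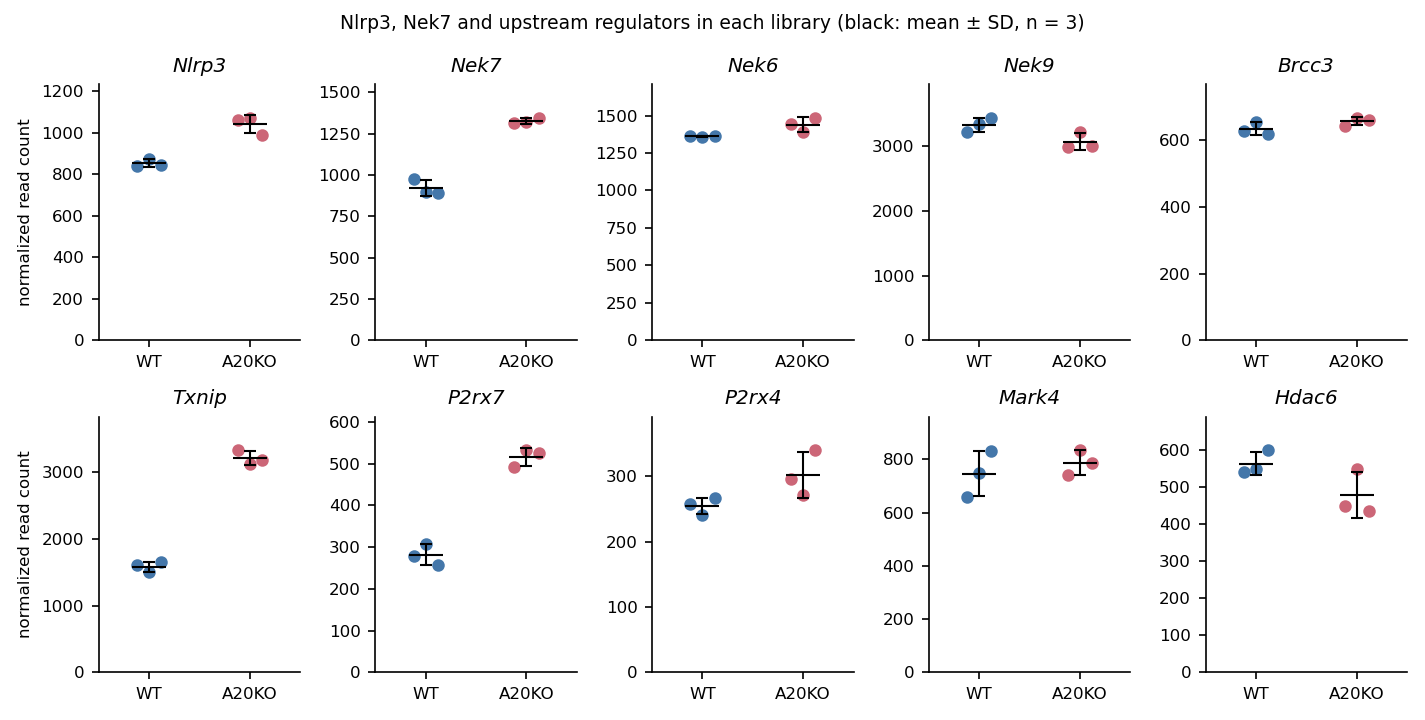
Normalized read count (y axis, from 0) of each of the 10 genes in each library, WT in blue and A20KO in red; black bars are the mean ± SD of 3 libraries. For Txnip, P2rx7, Nek7 and Nlrp3 every A20KO library lies above every WT library, and so it does for Nek6 and P2rx4, which did not pass the test. For Nek9, Hdac6, Brcc3 and Mark4 the genotypes overlap. Of all genes tested, 46.9% had genotypes that did not overlap.

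Nlrp3, the sensor (ENSMUSG00000032691, mm10 chromosome 11 from 59541568 to 59566956, plus strand), had 840, 874 and 844 normalized reads in WT and 1061, 1072 and 991 in A20KO. The lowest A20KO library lay above the highest WT library. The means were 853 ± 18.7 and 1041 ± 44.2, a ratio of 1.22 and a log2 fold change of 0.29 (95% interval 0.17 to 0.41, limma adjusted p = 5.6e-05). Although it passed, its change was moderate in this comparison: 53.5% of all genes tested changed more, in either direction. Over the 16 alternative analyses the log2 fold change stayed between 0.27 and 0.32 and passed in each, and the largest adjusted p was 0.019. The spread between WT libraries was 2.2% of the mean, below the 3.41% that counting of reads alone gives for 1 library.

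Nek7, the kinase that binds NLRP3 (ENSMUSG00000026393, chromosome 1 from 138482875 to 138620141, minus strand), had 974, 897 and 888 normalized reads in WT and 1312, 1319 and 1345 in A20KO. Its A20KO libraries lay closer together than its WT libraries, and the genotypes did not overlap. The ratio of the means, 919.9 ± 47.4 and 1325 ± 17.1, was 1.44 and the log2 fold change 0.53 (0.41 to 0.64, limma adjusted p = 4.3e-12). It passed under all 16 alternatives, with log2 fold changes of 0.50 to 0.57. Of all genes tested 32.6% changed more.

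Neither paralog of Nek7 rose past the threshold. Nek6 (ENSMUSG00000026749, chromosome 2 from 38511643 to 38594606, plus strand) had 1365, 1355 and 1362 normalized reads in WT and 1445, 1389 and 1484 in A20KO. The A20KO values all lay above the WT values, by little, and the log2 fold change of 0.08 (-0.02 to 0.18) did not pass (limma adjusted p = 0.23). Values that do not overlap were common here: 46.9% of all genes tested showed this, as did 6 of the 10 genes (Nlrp3, Nek7, Nek6, Txnip, P2rx7 and P2rx4). Nek9, the kinase upstream of NEK6 and NEK7 in mitosis (ENSMUSG00000034290, chromosome 12 from 85299514 to 85339362, minus strand), had 3222, 3340 and 3439 in WT and 2994, 3224 and 2998 in A20KO. It was lower on average, but A20KO replicate 2 lay level with WT replicate 1. Its log2 fold change of -0.12 (-0.20 to -0.03) passed (limma adjusted p = 0.018). Nek9 no longer passed when WT replicate 2 (adjusted p = 0.056), WT replicate 3 (0.083), A20KO replicate 1 (0.082) or A20KO replicate 3 (0.079) was left out, or when limma was run with neither variance trend nor robust estimation (0.2).

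**Figure D2:**
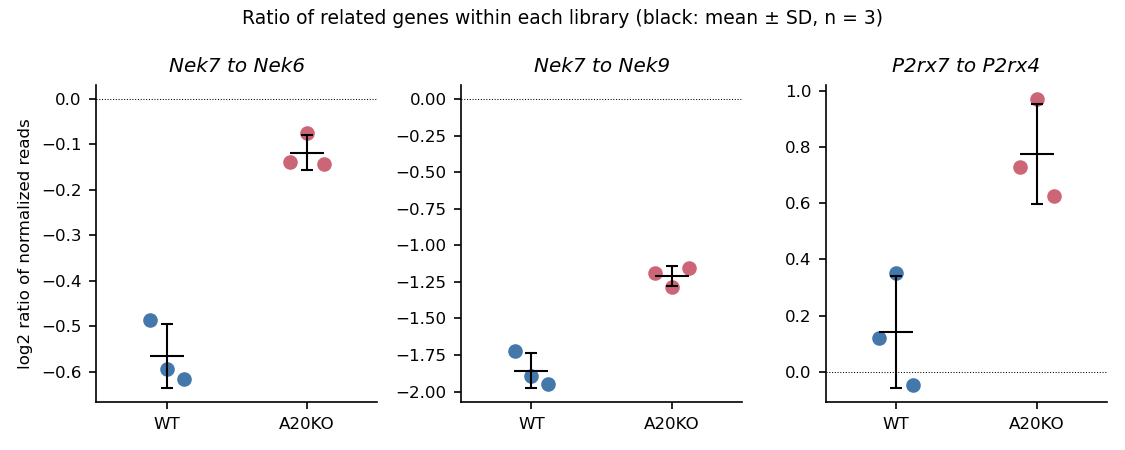
Log2 ratio of normalized reads between related genes within each library (y axis), WT in blue and A20KO in red; black bars are the mean ± SD of 3 libraries and the dotted line is a ratio of 1. All 3 A20KO libraries lie above all 3 WT libraries in each of the 3 ratios.

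The balance between Nek7 and its paralogs differed between the genotypes in each library. The log2 ratio of Nek7 to Nek6 was -0.49, -0.60 and -0.62 in WT and -0.14, -0.07 and -0.14 in A20KO, a difference of 0.45. The log2 ratio of Nek7 to Nek9 was -1.72, -1.90 and -1.95 in WT and -1.19, -1.29 and -1.16 in A20KO, a difference of 0.65. Both ratios were higher in 3 of 3 A20KO libraries (exact two-sided permutation test, p = 0.1 for each, the smallest that 3 against 3 allows, so neither could reach 0.05). A ratio within a library does not depend on scaling between libraries, and a difference of log2 ratios does not depend on gene length, and it shows unequal change, not that a paralog did not change. The difference of the log2 ratio stayed between 0.42 and 0.49 for Nek6 and 0.6 and 0.71 for Nek9 when each library was left out in turn. The transcripts of the 3 kinases shared no word of 31 bases, so reads of that length matching without error would not be split between them.

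In RPKM, reads divided by gene length and library total, Nek7 and Nek6 stood level in WT and apart in A20KO. Nek7 was at 8.66 ± 0.46 and Nek6 at 8.82 ± 0.0477 in WT, and at 12.8 ± 0.215 and 9.57 ± 0.349 in A20KO. The length-scaled ratio of Nek7 to Nek6 was 0.982 ± 0.0485 in WT and 1.34 ± 0.0361 in A20KO. Nek9 stayed far above both, at 43.0 ± 1.36 and 40.6 ± 1.67. Of the summed length-scaled level of the 9 NEK kinases listed, Nek9 made up 48% in WT and 44.1% in A20KO, Nek2 22.4% in both, Nek7 9.67% and 13.9%, and Nek6 9.84% and 10.4%. Gene length here is the union of all annotated exons, 7376 bases for Nek7, 10714 for Nek6 and 5386 for Nek9. Which transcripts the cells made is not known, so any level compared between genes depends on that length. Before length scaling Nek6 lay above Nek7 in both genotypes. Mean normalized reads were 1361 against 920 in WT and 1439 against 1325 in A20KO.

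Of the 9 NEK kinases tested, Nek7 alone passed the threshold upwards (11.1%, against 20.3% of all genes tested). Besides Nek9, Nek1 was lower, with 389 ± 38.2 normalized reads in WT and 320.2 ± 8.63 in A20KO (log2 fold change -0.27, limma adjusted p = 0.013). Nek2, a mitotic kinase, had 1308 ± 44.3 and 1307 ± 37.6 normalized reads, and Nek4 had 509 ± 52.5 and 485 ± 27.3 (limma adjusted p = 1 and 0.57). Nek8 had 45.5 ± 1.85 and 63.3 ± 1.93 (log2 fold change 0.47, limma adjusted p = 0.08). Its log2 fold change was close to the 0.53 of Nek7, the genotypes did not overlap, and it had only 138 and 190 reads per genotype. Nek3 had 31.7 ± 10.8 and 24.7 ± 1.98 normalized reads, and Nek10 12 and 18 reads summed over each genotype (limma adjusted p = 0.48 for both). Nek5 and Nek11 were not listed in the table. The median log2 fold change of the 9 was -0.00032, against 0.01 over all genes tested.

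Txnip changed most of the 10 genes, about doubling. This arrestin-like protein binds thioredoxin and restrains glucose uptake (ENSMUSG00000038393, chromosome 3 from 96557957 to 96561883, plus strand). It had 1602, 1501 and 1648 normalized reads in WT and 3332, 3129 and 3187 in A20KO, with every A20KO library far above every WT library. The means, 1584 ± 74.9 and 3216 ± 104, stood in a ratio of 2.03, a log2 fold change of 1.02 (0.93 to 1.11, limma adjusted p = 7.8e-29), and 14.7% of all genes tested changed more. An antisense gene, Gm15441, overlaps 19.4% of its exon bases. No source used here states whether counting used strand, so their reads cannot be told apart. Gm15441 was listed at means of 3.99 normalized reads in WT and 7.92 in A20KO, also higher in A20KO. That count cannot show how many antisense reads were counted for Txnip.

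The genes around Txnip did not follow one direction. Of its arrestin domain relatives, Arrdc2 rose from 161 ± 17 to 231 ± 12.1 normalized reads (limma adjusted p = 0.00032) and Arrdc1 fell from 449 ± 27.5 to 316 ± 15.7 (2.8e-06), while Arrdc3 and Arrdc4, the closest relative of Txnip, missed the threshold, with log2 fold changes of -0.13 and -0.03 (limma adjusted p = 0.54 and 0.92). Arrdc5 was not listed. All 6 genes of the thioredoxin system passed, 3 in each direction. Of all genes tested 39.8% passed, and of those with a mean of at least 100, as these 6 have, 58.2%. Txnrd2 and Prdx1 are named below after their values were seen, and a difference between compartments was not tested. The cytosolic reductase Txnrd1 fell from 14656 ± 53.7 to 7408 ± 11.4 normalized reads (limma adjusted p = 1.2e-37) and the cytosolic thioredoxin Txn1 from 6373 ± 179 to 5113 ± 84.8 (1.2e-11), as did the cytosolic peroxiredoxin Prdx1, which fell by 0.27 on the log2 scale. Their mitochondrial counterparts Txn2, Txnrd2 and Prdx3 rose, by 0.75, 0.31 and 0.22 on the log2 scale (limma adjusted p = 8.5e-22, 9.8e-05 and 5.1e-05). Txn2 lies on chromosome 15, where 355 of 662 genes tested were higher in A20KO (53.6%) and 47 lower (7.1%).

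The ATP-gated channel P2rx7 rose, and its neighbour P2rx4 did not pass. P2rx7 (ENSMUSG00000029468, chromosome 5 from 122643911 to 122691432, plus strand) had 280, 308 and 258 normalized reads in WT and 492, 532 and 525 in A20KO. The genotypes lay well apart, with means of 282 ± 25.0 and 516 ± 21.6, a ratio of 1.83 and a log2 fold change of 0.87 (0.70 to 1.05, limma adjusted p = 6.4e-13). P2rx4 (ENSMUSG00000029470, chromosome 5 from 122707544 to 122729738, plus strand) had 257, 241 and 266 in WT and 297, 271 and 340 in A20KO. Its A20KO values all lay above the WT values but spread more widely, and the log2 fold change of 0.24 (0.03 to 0.45) missed the threshold (limma adjusted p = 0.057). It passed in 4 of 16 alternatives: after quantile normalization (adjusted p = 0.038), with edgeR and RLE scaling (0.047), without WT replicate 3 (0.049) and without A20KO replicate 2 (0.026).

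The log2 ratio of P2rx7 to P2rx4 was 0.12, 0.35 and -0.05 in WT and 0.73, 0.97 and 0.62 in A20KO. It was higher in 3 of 3 A20KO libraries, by 0.63 (exact two-sided permutation test, p = 0.1, the smallest possible, also after adjustment over the 3 ratios compared). Per length, P2rx7 stood at 3.28 ± 0.287 RPKM in WT and 6.16 ± 0.269 in A20KO, and P2rx4 at 2.52 ± 0.129 and 3.07 ± 0.367. Of the summed length-scaled level of the 5 P2X receptors listed, P2rx7 made up 50.8% in WT and 63.7% in A20KO, P2rx4 39.2% and 31.7%, and P2rx5 9.03% and 2.97%. P2rx5 fell from 20.1 ± 4.02 to 9.62 ± 3.54 normalized reads (limma adjusted p = 0.038), on 61 and 29 reads per genotype. P2rx2 had 8 and 15 reads per genotype and did not pass (limma adjusted p = 0.28), P2rx3 had 0 and 2 reads and was not tested, and P2rx1 and P2rx6 were not listed.

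The deubiquitinase Brcc3 did not pass. It (ENSMUSG00000031201, chromosome X from 75416628 to 75454001, plus strand) had 628, 656 and 619 normalized reads in WT and 643, 667 and 661 in A20KO. The genotypes overlapped, and the log2 fold change was 0.05 (-0.09 to 0.19, limma adjusted p = 0.61). The interval leaves room for a rise of up to 0.19 or a fall of up to 0.09 on the log2 scale. BRCC3 works in the cytosol within the BRISC complex. Its scaffold Abraxas2 and its subunit Babam2 missed the threshold, each with a log2 fold change of -0.03 (limma adjusted p = 0.77 and 0.8). Babam1, the subunit also called MERIT40, fell from 1478 ± 113 to 1293 ± 50.3 normalized reads (limma adjusted p = 0.0033), with overlapping genotypes. Shmt2, the serine hydroxymethyltransferase that binds BRISC, fell from 7465 ± 267 to 6781 ± 199 (limma adjusted p = 0.00062).

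Of the microtubule-linked regulators, Mark4 did not pass, and Hdac6 was called lower, though not under every alternative. Mark4, a kinase that phosphorylates microtubule-associated proteins (ENSMUSG00000030397, chromosome 7 from 19424775 to 19458821, minus strand), had 660, 748 and 830 normalized reads in WT and 741, 834 and 787 in A20KO. The WT libraries alone spanned nearly the whole range, and the log2 fold change of 0.08 (-0.06 to 0.22) did not pass (limma adjusted p = 0.39). The spread of its WT libraries was 11.4% of the mean against 3.65% from counting. The other MARK kinases both fell, Mark2 from 2204 ± 5.11 to 1885 ± 76.6 and Mark3 from 1114 ± 46.9 to 929.6 ± 34.5 normalized reads (limma adjusted p = 4.1e-05 and 0.00018). Mark1 was not listed.

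Hdac6, the cytosolic deacetylase of tubulin that also carries ubiquitinated cargo to the aggresome (ENSMUSG00000031161, chromosome X from 7930120 to 7947889, minus strand), had 541, 548 and 599 normalized reads in WT and 449, 549 and 435 in A20KO. It was lower in A20KO replicates 1 and 3, while A20KO replicate 2 lay within the WT range. The log2 fold change of -0.24 (-0.40 to -0.08) passed (limma adjusted p = 0.013). Hdac6 no longer passed when WT replicate 3 (adjusted p = 0.07), A20KO replicate 1 (0.078) or A20KO replicate 3 (0.1) was left out, under DESeq2 (0.074), or when limma was run with neither variance trend nor robust estimation (0.18). Hdac10, the other class IIb deacetylase, rose from 406 ± 19.5 to 739 ± 33.5 (limma adjusted p = 1.5e-15) and lies on chromosome 15. Of the 10 genes of the list of these deacetylases and the aggresome, 3 were higher and 2 lower (30% and 20%, against 20.3% and 19.6% of all genes tested). Besides Hdac10 they were Vcp, the ubiquitin-handling ATPase (log2 fold change 0.13, limma adjusted p = 0.0014), and the centrosome protein Pcnt (0.17, 0.007) upwards, and besides Hdac6 the dynein heavy chain Dync1h1 downwards (-0.25, 2.7e-09).

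**Figure D3:**
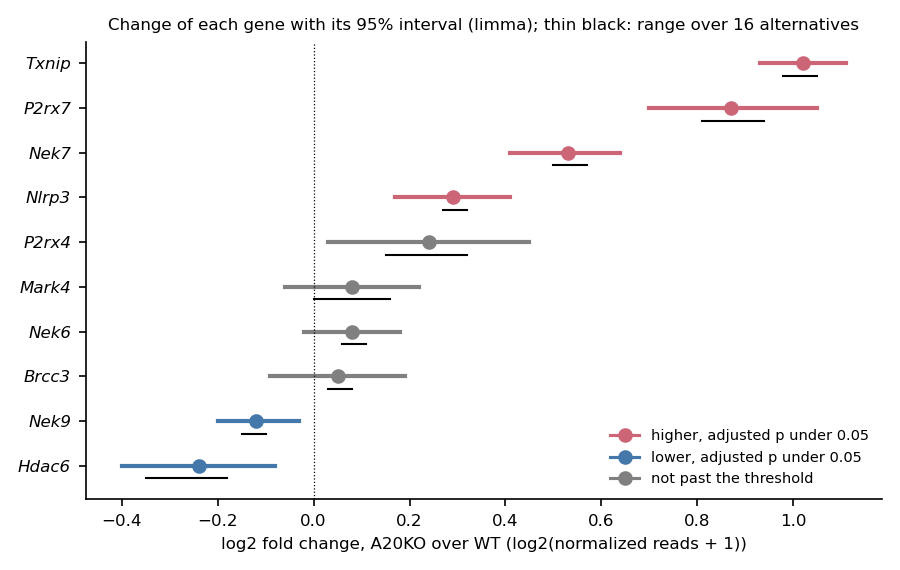
Log2 fold change of each gene, A20KO over WT (x axis), as a point with its 95% interval from limma; red and blue genes passed the threshold and grey genes did not, and the thin black line is the range over 16 alternative analyses. The intervals of Txnip, P2rx7, Nek7 and Nlrp3 lie above 0 with short ranges, and the range for Mark4 reaches 0.

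Compared per length of all annotated exons, the order of the 10 genes changed between the genotypes. Within a genotype the order depends on that length, as the transcripts made are not known. In WT it was led by Nek9 (43 RPKM) and Txnip (35.2), followed by Nlrp3 (14.6), Mark4 (11.1), Nek6 (8.82), Nek7 (8.66), Hdac6 (6.72), Brcc3 (5.59), P2rx7 (3.28) and P2rx4 (2.52). Only for Nek6 and Nek7 did the ranges of neighbours in this order overlap. In A20KO Txnip led (73.3) before Nek9 (40.6) and Nlrp3 (18.3), and Nek7 (12.8) moved above Mark4 (12) and Nek6 (9.57). The ranges of Nek7 and Mark4 overlapped there, as did those of P2rx7 (6.16) and Brcc3 (5.93), and of Brcc3 and Hdac6 (5.84). P2rx4 (3.07) was last in both. Among all genes tested, Nek9 ranked above 92.7% in WT and P2rx4 above 46.9%.

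**Figure D4:**
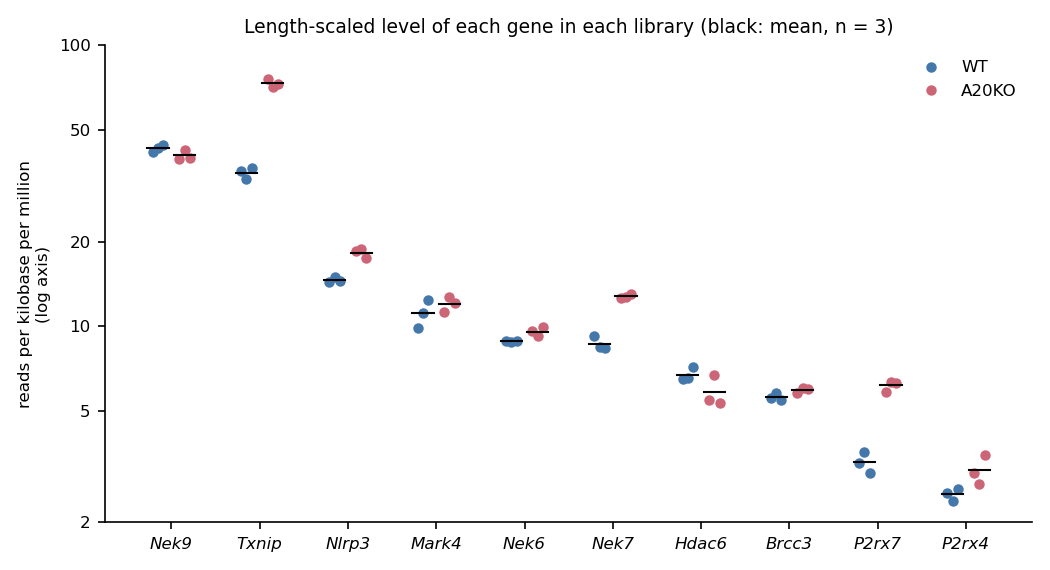
RPKM over the union of annotated exons (y axis, log scale) of each gene in each library, ordered by the WT mean. WT is in blue, A20KO in red and the mean of 3 libraries in black. Txnip passes Nek9 in A20KO, at 73.3 against 40.6, and Nek7 and Nek6 are level in WT and separate in A20KO.

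The members lie on 8 chromosomes, of which none was shifted as chromosome 15 was. On chromosome 1, which holds Nek7, 25.2% of genes tested were higher and 13.7% lower, with a median log2 fold change of 0.10. On chromosomes 11 (Nlrp3), 3 (Txnip) and 5 (P2rx7 and P2rx4), 21.7%, 17.4% and 17.6% were higher and 19.4%, 24.3% and 19% lower. On the X chromosome (Brcc3 and Hdac6) 19% were higher and 21.3% lower, and the medians on the other member chromosomes lay between -0.05 and 0.02. Besides Gm15441 at Txnip, opposite-strand genes with exons overlapping a member were Psmb7, which covers 3.78% of Nek6 exon bases and had means of 1390 and 1330 normalized reads, and Gm28501, which covers 1.6% of those of Nek7.

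The genes whose pattern over the 6 libraries was nearest to that of Nlrp3, by root mean square distance of centred log2 values among 9029 other genes at a mean of 100 or more, were Chaf1b, Commd3, Paip2, Ipo4 and Rsl1d1 (distances 0.018 to 0.027). Those nearest to Nek7 were Bclaf1, Pphln1, Skp2, Nup155 and Uspl1 (0.02 to 0.031), and 3 of these 5 (Pphln1, Skp2 and Nup155) lie on chromosome 15. These are the closest of many genes with a step of the same size, described over 6 libraries in 2 groups.

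Genes of the pathway and of the members' families changed in both directions. Over 13 such lists, 112 genes other than the 10 were tested, and 23 were higher (20.5%) and 40 lower (35.7%), with a median log2 fold change of -0.04. Of all genes tested 20.3% were higher and 19.6% lower, and of the genes with a mean of at least 100 the shares were 28.3% and 29.9%. The difference between the lists and other genes was not tested. Of 14 channels and pores upstream of NLRP3, 3 were higher and 6 lower. Besides P2rx7, Trpm7, a cation channel with a kinase domain, rose from 3058 ± 154 to 3732 ± 107 normalized reads (limma adjusted p = 2.4e-08). Clic1, an intracellular chloride channel, fell from 3386 ± 75.5 to 2509 ± 79 (1.0e-13), and Trpv2 fell by 0.43 on the log2 scale. The potassium channels of the list, named after their values were seen, went opposite ways: Kcnk13, or THIK-1, rose from 272 ± 10.7 to 380.2 ± 19.1 (limma adjusted p = 2.2e-05) and Kcnk6, or TWIK2, fell from 807 ± 38.4 to 607 ± 33.8 (8.0e-07). Panx1 and Casr were not listed.

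Of 18 kinases and phosphatases acting on NLRP3, 4 were higher (22.2%) and 7 lower (38.9%). Of all genes tested 20.3% were higher and 19.6% lower, and of those with a mean of at least 100, 28.3% and 29.9%. Pak1, which can phosphorylate NLRP3, rose from 968 ± 32.8 to 1390.1 ± 38.7 normalized reads (limma adjusted p = 2.8e-12), a change close to that of Nek7. Ikbke, the kinase IKK-epsilon, fell from 2422 ± 67.5 to 547 ± 63.4 (3.1e-35), the largest change among the list genes tested, and the tyrosine kinase Syk fell from 3605 ± 66.1 to 1975 ± 43.3 (6.6e-27). Of 18 ubiquitin ligases and deubiquitinases 2 were higher (11.1%) and 5 lower (27.8%). Skp2, on chromosome 15, and the cullin Cul1 rose by 0.51 and 0.13 on the log2 scale (limma adjusted p = 1.1e-10 and 0.022). The ligase Cbl and the deubiquitinase Usp22 fell by 0.49 and 0.64 (7.6e-17 and 2.6e-14).

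Of 17 Golgi lipid, palmitoylation and organelle factors 2 were higher (11.8%) and 7 lower (41.2%), against 20.3% and 19.6% of all genes tested. Pi4k2b, a kinase that makes phosphatidylinositol 4-phosphate, the lipid to which NLRP3 is recruited, fell from 888 ± 28.7 to 498 ± 32 normalized reads (limma adjusted p = 3.1e-16), and the palmitoyltransferase Zdhhc12 fell from 478 ± 24.6 to 263 ± 24 (3.5e-12). Tgoln1, the trans-Golgi protein TGN38, rose by 0.37 and Scap, the escort of SREBP, by 0.20 on the log2 scale (3.4e-08 and 0.0016). Of 12 genes for mitochondrial signals 5 were higher (41.7%) and 3 lower (25%). Among them were Txnip and Tspo, on chromosome 15, upwards and the hexokinases Hk2 and Hk1 downwards, which fell by 0.43 and 0.36. Of the 7 genes downstream, 3 were higher (42.9%) and 2 lower (28.6%). Gsdmd, on chromosome 15, and Casp8 rose by 0.38 and 0.30, Casp1 rose by 0.33, and Ninj1 and Pycard, the adaptor ASC, fell by 0.71 and 0.91 on the log2 scale. Il18 and Il1b did not pass (limma adjusted p = 0.071 and 0.56), and Il1b had 8 and 11 reads per genotype.

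**Figure D5:**
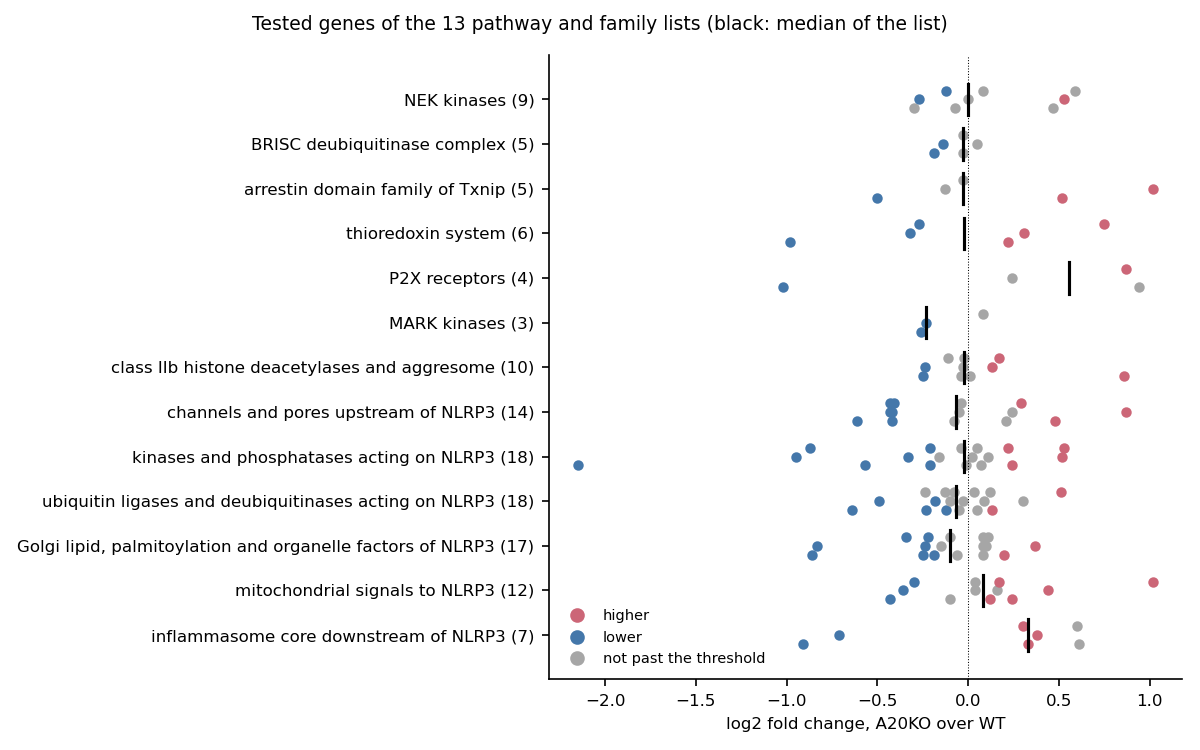
Log2 fold change (x axis, A20KO over WT) of each tested gene of 13 pathway and family lists (rows, with the number tested), red where higher, blue where lower and grey where not past the threshold; black bars are list medians. In the lists of 9 or more genes the medians lie between -0.10 and 0.08, with genes on both sides of 0, and the lowest point is Ikbke at -2.15.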

How the data were processed

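Trizol-extracted RNA went into libraries of a SMARTer mRNA-seq kit, according to the labels' protocols. The submitters' processing notes name the build mm10. The sources used here name no aligner, counting tool, strand setting or annotation. The authors deposited 1 table of normalized signal per gene and sample, reads divided by a size factor (0.9519 to 1.0491) and not by gene length: 100% of values were whole multiples of 1 read within 0.001, so whole reads were recovered. In the same table the authors gave the gene length and their own comparison: log2 fold change, p-value and adjusted p-value. All 16559 genes with a DESeq2 adjusted p computed here lay within 0.001 of the deposited adjusted p.

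Values were tested as log2(value + 1) for 17376 genes with a mean of at least 1 with limma 3.58.1 (trend, robust) in R 4.3.3, Benjamini-Hochberg adjusted over all genes, as the design set for normalized values. The pseudocount makes fold changes of low genes too small. Alternatives used edgeR 4.0.16 and DESeq2 1.42.0 on recovered reads. The code was also run on simulated data in which few genes were changed. In the real data 39.8% of genes tested passed, so that run does not show how the test performs here. GENCODE M21 holds 21038 of the identifiers, 97.1% of them with the same start and end, all 10 genes included, and for 96.4% of the 21038 the deposited length is the union of exons, which was used for length-scaled levels. Upstream sequences, found for 9 of the 10 genes, come from RefSeq (GRCm38.p6). Replicates differed by more than sampling noise (chi-square 2.67 to 3.6 per degree of freedom), so each library counted once. The genes, lists and tests were chosen with earlier results of these data known. Genes named from lists had the smallest adjusted p in each direction, at most 2 per direction; Txnrd2, Prdx1, Pcnt, Casp1, Kcnk13 and Kcnk6 were added after their values were seen. All members of the NEK, P2X, MARK and BRISC lists were named. The genes nearest to Nlrp3 and Nek7 were the 5 of smallest distance.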

Additional observations from a re-analysis of the deposited data

How the results depend on the processing

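Nlrp3, Nek7, Txnip and P2rx7 rose and passed under all 16 alternatives run, and Nek6, Brcc3 and Mark4 passed under none. The count of the 10 genes lower in A20KO, 2 as reported, was 0 without both the variance trend and the robust estimation in limma (also 0 at an unadjusted p under 0.05), 1 with DESeq2 and 2 with edgeR, and it ranged from 0 to 2 when each library was left out in limma (2 at an unadjusted p under 0.05 in every case). The log2 fold change of Mark4, which did not pass, ranged from -0.0029 (without WT replicate 1) to 0.16 (without WT replicate 3) when each library was left out. Without both, 5014 of all genes passed, against 6917, and 47 of the pathway list genes against 68. Leaving out each library in turn gave 6214 to 6515 genes, 4 to 7 of the 10 genes and 62 to 69 list genes past the threshold. With the replicate number as a block, 6 of the 10 genes and 6729 of all genes passed, Nlrp3 at an adjusted p of 0.00017 and Nek7 at 1.9e-10. The labels give no source for a pairing, and same-numbered libraries deviated with correlations of -0.04, -0.02 and -0.09. No library correlated best with the library of its own number. WT replicates 1, 2 and 3 correlated best with A20KO replicates 3 (0.11), 1 (0.04) and 2 (0.09). Depth limits the low genes: Il1b, Nek10, P2rx2 and P2rx3 had at most 18 reads per genotype.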
